A study of Mus musculus with 10 samples.

Results

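The RNA levels of a set of nuclear factor kappa B (NF-kappaB) genes were followed in mouse primary cortical neurons exposed to the proteasome inhibitor lactacystin. The set was 10 genes: the subunit genes Nfkb1, Nfkb2, Rela and Relb, the inhibitor genes Nfkbia, Nfkbib and Nfkbie, and the target genes Vcam1, Icam1 and Ccl2. Its members were all Affymetrix probe sets whose platform symbol was one of these names. Of the 10 genes, 9 had a probe set, with 14 probe sets in all. Both array designs carried 12 of them, among 9977 shared probe sets, and the other 2 were on U74Av2 only. No probe set used here carried Nfkb1 as its one symbol, so Nfkb1 was not analysed here.

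The neurons came from the neocortex of foetal Swiss albino mice at gestation day 15 to 16, and on day 5 in vitro they received 1 µM lactacystin in a serum-free medium. The groups were lactacystin for 24 h (3 arrays), lactacystin for 48 h (3 arrays), control at 24 h (2 arrays) and control at 48 h (2 arrays), and each group held 1 U74A array with the rest on the revised design U74Av2. From the labels it is not known whether control cultures received the solvent of the lactacystin stock, or whether replicate arrays came from different cultures. The p-values therefore rest on the spread of these arrays alone, and that spread may be technical. The study's stated subject was lactacystin-mediated neuronal death, and the comparison here asks how the NF-kappaB genes behaved at each time of exposure.

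NF-kappaB is a family of transcription factors that pair through a shared Rel homology domain. In resting cells the dimers are held in the cytoplasm by inhibitor proteins, the IkappaBs. Upstream receptors switch on a kinase complex that marks the IkappaBs for destruction by the proteasome, and the freed dimers move to the nucleus and switch on genes of inflammation, adhesion and survival, among them the gene of IkappaB-alpha itself. The proteasome also trims the Nfkb2 precursor into its active form, so an inhibitor of the proteasome acts on this pathway at the protein level. The arrays measured RNA only, not the inhibitor proteins or the location of the factors.

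Among the members, RNA of the adhesion gene Vcam1 and of the chemokine gene Ccl2 was higher with lactacystin, while no probe set of a subunit or inhibitor gene passed the test. Vcam1 rose at 48 h on its brightest probe set, 2.13-fold on the scale of signal plus 32, and its 24 h change did not pass. Ccl2 was low on every array, and rose at both times, 2.22-fold at 24 h and 2.07-fold at 48 h on the same scale. The p-values are from limma, adjusted by the Benjamini-Hochberg method over all probe sets tested, with a threshold of 0.05. Ccl2 was too low for the main fit, so its p-values come from a separate fit of all 9977 shared probe sets. Signals are in arbitrary units after each array was scaled to a trimmed mean of 500, and 32 was added before log2 was taken, which understates the change of low genes. Errors of log2 changes are standard errors (SE), and those of signals are SDs.

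Of the 12 shared member probe sets, 8 (of 6 genes) lay above the filter on low signals and were tested among 6984 probe sets. At 24 h, 0 of the 8 were called by limma, against a background of 14.9% of all tested probe sets called in either direction, and 1 of the 8 had an unadjusted p under 0.05. At 48 h, 1 of the 8 was called, against a background of 10.3%. Over both times together it was again 1 of 8, against 17.0% (9.52% higher and 7.52% lower), and for the difference between the times 0 of 8, against 1.23%, with 1 of the 8 at an unadjusted p under 0.05. Among these 8 probe sets the share of calls was thus no larger than that of all probe sets at 24 h, and 1 call among 8 at 48 h is close to the background. Low probe sets are not part of this count. With 1 probe set per gene, the median log2 change of the 6 tested genes was 0.09 at 24 h and 0.10 at 48 h, beside -0.03 and 0.04 over all tested probe sets.

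The other 4 member probe sets, of Nfkbie, Vcam1, Icam1 and Ccl2, had mean signals of 47.9, 43.7, 12.4 and 37.9 over the 10 arrays, under the lowest mean of 54.8 among tested probe sets. The nearest member above the filter was Nfkb2, with a mean of 96.0. Values for these 4 come from a fit of all 9977 shared probe sets without the filter. In that fit 4.73% of probe sets were called higher and 3.41% lower at 24 h, and 3.43% were called higher and 1.56% lower at 48 h. Over both times the shares were 5.69% and 4.35%. Whether the scanner software called these low signals present was not used here.

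**Figure D1:**
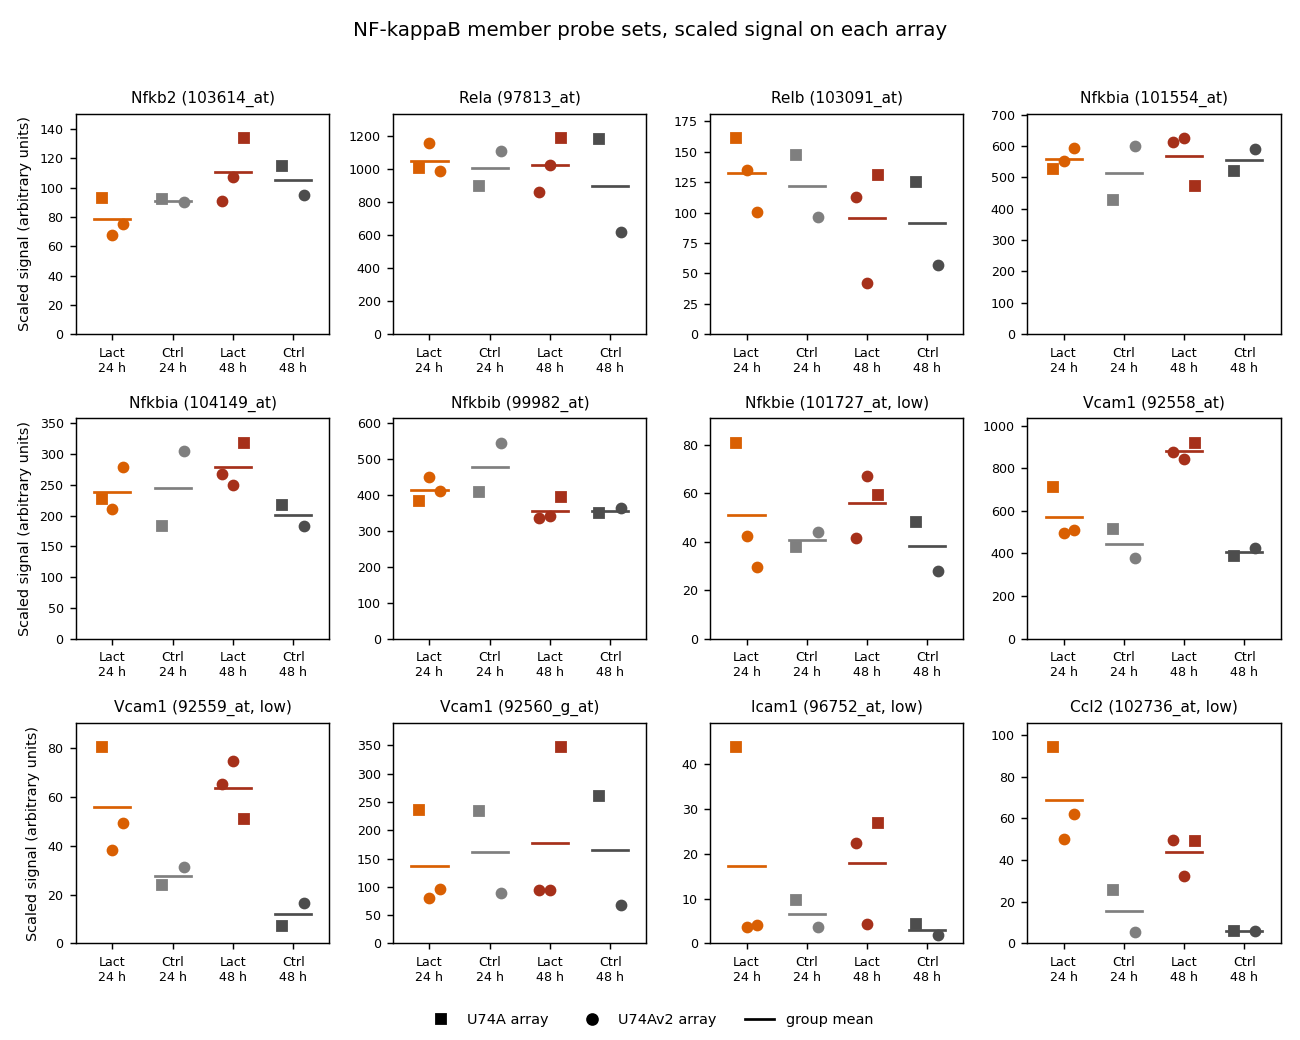
Scaled signal (arbitrary units, y axis from 0) of the 12 shared member probe sets on each of the 10 arrays, with lactacystin left of control at 24 h and at 48 h. Squares are U74A arrays, circles U74Av2 arrays and bars group means; "low" marks the 4 probe sets under the filter. For Vcam1 92558_at the 3 lactacystin arrays at 48 h sit between 843 and 920, above all control arrays.

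The subunit genes come first. Rela encodes p65, the subunit with a strong activation domain in the classical dimer. Its probe set 97813_at read 1005, 1156 and 986 on the lactacystin arrays at 24 h, against 899 and 1107 on the control arrays. The 48 h signals were 863, 1021 and 1187 with lactacystin, against 1181 and 617 in control. The groups overlapped at both times, and the widest spread was between the 2 control arrays at 48 h. The log2 change was 0.10 ± 0.21 at 24 h (adjusted p = 0.799) and 0.27 ± 0.21 at 48 h (adjusted p = 0.492).

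Relb encodes the partner of p52 in the non-canonical pathway. Relb 103091_at read 161, 135 and 100 with lactacystin at 24 h, against 147 and 96.7 in control. By 48 h the readings were 112, 42.0 and 131 with lactacystin, against 125 and 57.0 in control. The groups overlapped at both times, with log2 changes of 0.19 ± 0.26 (adjusted p = 0.676) and 0.12 ± 0.26 (adjusted p = 0.840). A second probe set for each of Rela and Relb was on U74Av2 only and ranged from 2.20 to 6.03 and from 6.40 to 11.2 over those 6 arrays, so it was not tested.

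Nfkb2 encodes p100, the precursor that the proteasome trims to p52. Its signal on 103614_at was 93.1, 67.4 and 75.2 with lactacystin at 24 h, against 92.1 and 90.1 in control. The 48 h readings were 90.6, 107 and 134 with lactacystin, against 115 and 95.2 in control. Arrays of both groups were interleaved, and the log2 changes were -0.12 ± 0.18 (adjusted p = 0.691) and 0.09 ± 0.18 (adjusted p = 0.825).

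The inhibitor genes were next. Nfkbia encodes IkappaB-alpha, the inhibitor whose own gene is a textbook NF-kappaB target. On its probe set 101554_at the signal was 527, 554 and 594 with lactacystin at 24 h, against 428 and 600 in control. At 48 h it was 612, 626 and 472 with lactacystin, against 520 and 592 in control. The groups overlapped at both times. The log2 change was 0.08 ± 0.13 at 24 h (adjusted p = 0.706), with a 95% interval from -0.19 to 0.36, and -0.02 ± 0.13 at 48 h (adjusted p = 0.956), with an interval from -0.30 to 0.26. These intervals leave out a change of Nfkbia of the size seen for Vcam1 on 92558_at at 48 h, on this probe set.

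A second Nfkbia probe set gave another picture at 48 h. Nfkbia 104149_at read 228, 211 and 279 with lactacystin at 24 h, against 184 and 305 in control, a log2 change of -0.01 ± 0.21 (adjusted p = 0.990). Its 48 h signals were 268, 250 and 319 with lactacystin, against 217 and 184 in control. Here every lactacystin array lay above both control arrays, by 0.49 log2 within U74A and by 0.43 within U74Av2. The log2 change was 0.41 ± 0.21, with a 95% interval from -0.04 to 0.86, and it did not pass the test (adjusted p = 0.244). The 2 probe sets of Nfkbia therefore differed in the sign of their 48 h estimate, and neither passed.

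Nfkbib encodes IkappaB-beta. Its probe set 99982_at gave 383, 451 and 410 with lactacystin at 24 h, against 408 and 545 in control. The 48 h arrays gave 335, 340 and 394 with lactacystin, against 350 and 363 in control. The groups overlapped, with log2 changes of -0.19 ± 0.15 (adjusted p = 0.430) and -0.02 ± 0.15 (adjusted p = 0.965).

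Nfkbie encodes IkappaB-epsilon, and its probe set 101727_at was among the low ones. It read 80.9, 42.4 and 29.5 with lactacystin at 24 h, against 37.8 and 44.0 in control. On the 48 h arrays it read 41.5, 67.3 and 59.1 with lactacystin, against 48.3 and 28.0 in control. The groups overlapped at both times, with log2 changes of 0.19 ± 0.24 (adjusted p = 0.700) and 0.38 ± 0.24 (adjusted p = 0.442).

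**Figure D2:**
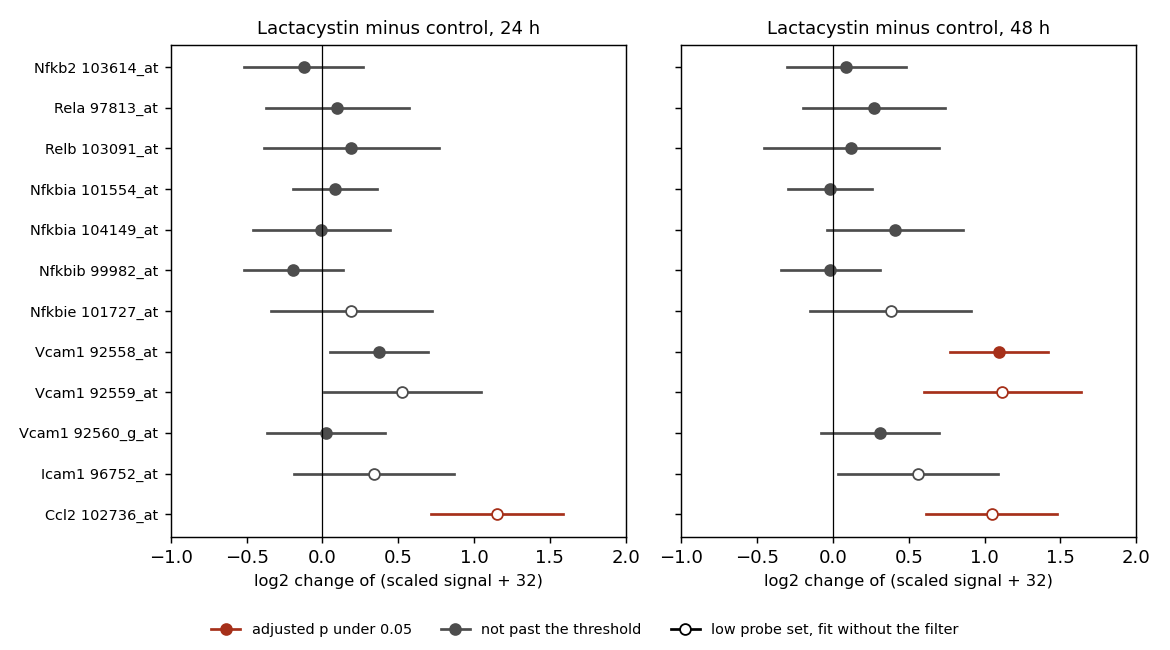
Log2 change of signal plus 32, lactacystin minus control, for the 12 shared member probe sets at 24 h (left) and 48 h (right), with 95% intervals from limma as bars and 0 as a vertical line. Red marks an adjusted p under 0.05 and open circles mark the 4 low probe sets; Vcam1 92558_at stands at 1.09 and Vcam1 92559_at at 1.12 at 48 h, and Ccl2 at 1.15 and 1.05 at the 2 times.

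Some genes of this pathway, Nfkbia among them, are controlled by NF-kappaB through kappaB sites. The RefSeq promoter table (GRCm38.p6) had entries for 6 of the members, with 8 start sites. The 250 bases before each start were searched on both strands for the degenerate kappaB consensus GGGRNNYYCC, a decamer that NF-kappaB dimers recognise. In it R is A or G, Y is C or T, and N is any base. The consensus was found at 5 of the 8 starts, of the 3 genes Nfkb2, Nfkbia and Nfkbie, and at 7.25% of all 32851 promoter windows in the table. Nfkb2 has 3 of these starts, and the windows of its starts 2 and 3 overlap, so the 8 are not independent. The windows of Rela, Nfkbib and Icam1 held no match, and Relb, Vcam1 and Ccl2 had no entry. A match is a string of letters and not a site that was shown to be bound. A window without a match can still hold a site whose letters depart from this pattern.

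The windows of the first listed start of the 3 genes with a match are shown so that the letters can be read beside the values above. Each is written 5′ to 3′ on the strand of the gene, ends at the base before the start, and has the letters of consensus matches in capitals. The Nfkbia window, chr12:55492648-55492897 on the minus strand, holds 1 match at 29 to 20 bases before the start. The Nfkbie window, chr17:45555450-45555699 on the plus strand, holds 1 match at 106 to 97 bases before the start. The Nfkb2 window, chr19:46304487-46304736 on the plus strand, holds 4 matches when each strand is counted. The letters at 39 to 30 bases before the start read the same on both strands and were counted on each. A further match overlaps them at 38 to 29 bases, and the last lies at 11 to 2 bases before the start.
Nfkbia: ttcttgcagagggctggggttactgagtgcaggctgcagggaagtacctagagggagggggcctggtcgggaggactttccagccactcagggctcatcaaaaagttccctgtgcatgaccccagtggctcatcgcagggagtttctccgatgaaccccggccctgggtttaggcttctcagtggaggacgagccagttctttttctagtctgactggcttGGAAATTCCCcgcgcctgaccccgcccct
Nfkbie: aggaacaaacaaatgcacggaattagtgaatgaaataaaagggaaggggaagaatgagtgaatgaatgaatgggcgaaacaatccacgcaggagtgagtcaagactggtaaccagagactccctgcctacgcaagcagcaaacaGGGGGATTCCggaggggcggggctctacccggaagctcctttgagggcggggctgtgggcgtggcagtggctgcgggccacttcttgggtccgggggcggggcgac
Nfkb2: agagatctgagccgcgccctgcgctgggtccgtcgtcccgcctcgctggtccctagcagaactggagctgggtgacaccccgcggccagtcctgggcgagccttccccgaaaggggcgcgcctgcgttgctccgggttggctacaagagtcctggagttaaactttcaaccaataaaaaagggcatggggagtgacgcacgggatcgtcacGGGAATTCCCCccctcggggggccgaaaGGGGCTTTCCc
The 3 genes whose windows hold these matches had no probe set past the test at either time, as given above. Nor had Rela, Nfkbib and Icam1, whose windows hold none. Vcam1 and Ccl2, the members that were called, had no entry, so matches and calls cannot be set against each other here.

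Of the target genes, Vcam1 encodes vascular cell adhesion molecule 1, a surface protein that binds integrins on white blood cells. Its probe set 92558_at read 711, 495 and 510 with lactacystin at 24 h, against 513 and 378 in control. At 48 h it read 877, 843 and 920 with lactacystin, against 390 and 424 in control. The 24 h groups overlapped, since 2 lactacystin arrays lay below the higher control array, while at 48 h every lactacystin array lay above both controls.

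The order of the group means of Vcam1 92558_at was lactacystin at 48 h (880 ± 38.4, n = 3), lactacystin at 24 h (572 ± 121, n = 3), control at 24 h (445 ± 95.3, n = 2) and control at 48 h (407 ± 23.8, n = 2). Neighbours in the lower part of this order overlapped, and the lactacystin arrays at 48 h overlapped none of the others. The log2 change was 0.37 ± 0.15 at 24 h (limma, unadjusted p = 0.0272, adjusted p = 0.117) and 1.09 ± 0.15 at 48 h (adjusted p = 0.00111), with a 95% interval from 0.77 to 1.42 at 48 h. The change at 48 h exceeded that at 24 h by 0.72 ± 0.21, a difference that did not pass the test (adjusted p = 0.117). With both times in 1 comparison the change was 0.73 ± 0.15 (adjusted p = 0.00583).

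Among the 6984 tested probe sets, Vcam1 92558_at had the 105th highest log2 change at 48 h, with 98.5% of probe sets below it, and the 983rd highest at 24 h, with 85.9% below it. The difference was present in both array designs, at 0.45 log2 within U74A and 0.38 within U74Av2 at 24 h, and at 1.17 and 0.97 at 48 h. The call at 48 h held in all 25 alternatives, including without each array in turn, with log2 changes from 0.89 to 1.32 and adjusted p from 0.000859 to 0.0250. At 24 h the call was made in 1 alternative, the fit of the 24 h arrays alone (0.41, adjusted p = 0.0409).

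**Figure D3:**
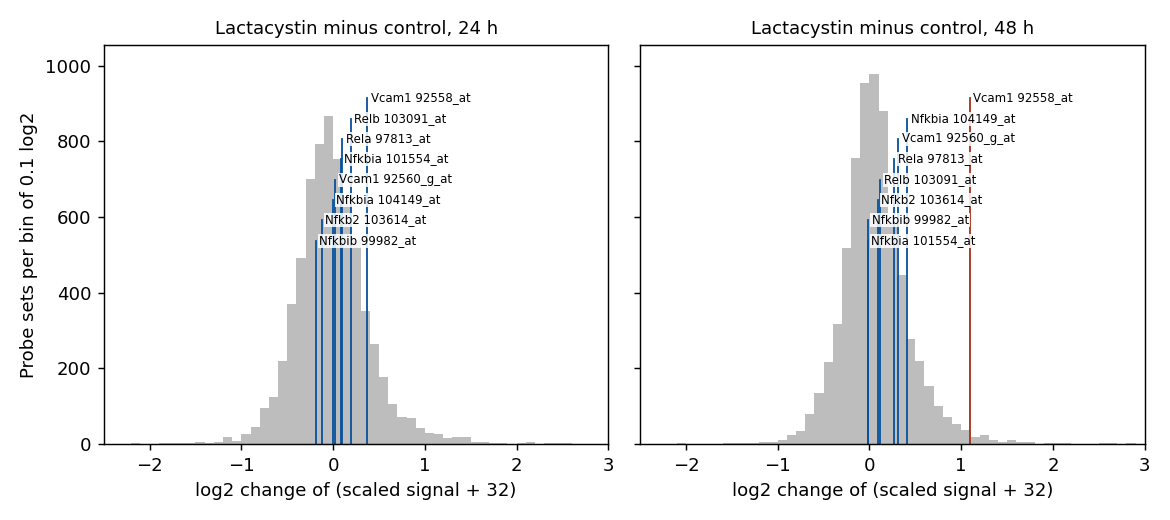
Number of probe sets per bin of 0.1 log2 (y axis) by log2 change, lactacystin minus control (x axis), for the 6984 tested probe sets at 24 h (left) and 48 h (right), with the 8 tested member probe sets as vertical lines of staggered height for their labels. The red line is Vcam1 92558_at at 1.09 at 48 h, in the upper tail; the other member lines lie between -0.19 and 0.41.

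Vcam1 had 2 further probe sets. The low probe set Vcam1 92559_at read 80.3, 38.1 and 49.2 with lactacystin at 24 h, against 24.1 and 31.3 in control. Its 48 h readings were 65.2, 74.5 and 50.8 with lactacystin, against 7.28 and 16.4 in control. Every lactacystin array lay above every control array at both times. Its log2 change was 0.53 ± 0.23 at 24 h (adjusted p = 0.212) and 1.12 ± 0.23 at 48 h (adjusted p = 0.0256), and 0.82 ± 0.18 over both times (adjusted p = 0.0185).

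The 48 h call of Vcam1 92559_at was lost in 7 of 23 alternatives. The adjusted p at 48 h was 0.0681 without lactacystin 48 h replicate 1, 0.0724 without lactacystin 48 h replicate 2, 0.177 without control 48 h replicate 1 and 0.103 without control 48 h replicate 2. It was 0.0742 without the array design covariate and 0.0922 on the U74Av2 arrays alone. For both times together the call was lost without lactacystin 24 h replicate 1 (0.0604), control 48 h replicate 1 (0.0539) or control 48 h replicate 2 (0.0651), and on the U74Av2 arrays alone (0.194). Within designs the 48 h difference was 1.07 log2 in each of U74A and U74Av2.

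The third Vcam1 probe set, 92560_g_at, did not pass. It read 236, 80.0 and 95.8 with lactacystin at 24 h, against 234 and 89.7 in control. On the 48 h arrays it read 94.4, 93.5 and 347 with lactacystin, against 260 and 68.3 in control. The high readings were all on U74A: this probe set stood 1.36 log2 higher on U74A than on U74Av2 after the groups were allowed for, a larger offset than that of 97.5% of tested probe sets, whose median absolute offset was 0.25. With design as a covariate the log2 change of 92560_g_at was 0.03 ± 0.18 at 24 h (adjusted p = 0.946) and 0.31 ± 0.18 at 48 h (adjusted p = 0.313).

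Icam1 encodes intercellular adhesion molecule 1, which binds integrins of the beta-2 class. Its probe set 96752_at was the lowest of the shared members. It read 43.7, 3.74 and 4.02 with lactacystin at 24 h, against 9.57 and 3.57 in control. Signals at 48 h were 22.3, 4.29 and 26.9 with lactacystin, against 4.24 and 1.83 in control. The 48 h groups did not overlap, by a margin of 4.29 to 4.24, and the 24 h groups did. Log2 changes were 0.34 ± 0.24 at 24 h (adjusted p = 0.443) and 0.56 ± 0.24 at 48 h (adjusted p = 0.232).

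Ccl2 encodes a chemokine that attracts monocytes. Its probe set 102736_at read 94.0, 49.9 and 62.1 with lactacystin at 24 h, against 25.5 and 5.22 in control. Readings at 48 h were 49.6, 32.2 and 48.9 with lactacystin, against 5.81 and 5.76 in control. All 6 lactacystin arrays lay above all 4 control arrays. Group means were 68.7 ± 22.8 with lactacystin at 24 h (n = 3), against 15.3 ± 14.3 in control (n = 2), and 43.6 ± 9.84 with lactacystin at 48 h (n = 3), against 5.78 ± 0.0375 in control (n = 2).

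The log2 change of Ccl2 was 1.15 ± 0.19 at 24 h (adjusted p = 0.00694) and 1.05 ± 0.19 at 48 h (adjusted p = 0.0170), and the changes at the 2 times differed by -0.11 ± 0.27 (adjusted p = 0.901). Over both times it was 1.10 ± 0.13 (adjusted p = 0.00082), a call that held in all 22 alternatives. Within designs the difference was 1.13 log2 on U74A and 1.24 on U74Av2 at 24 h, and 1.10 and 0.94 at 48 h. The call at 24 h was lost without control 24 h replicate 2 (adjusted p = 0.122), without the design covariate (0.0576) and on U74Av2 arrays alone (0.0626). At 48 h it was lost without control 48 h replicate 1 (0.145) or control 48 h replicate 2 (0.0641), in the fit of the 48 h arrays alone (0.0562), without the covariate (0.128) and on U74Av2 arrays alone (0.123).

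Counted over the 12 shared member probe sets, the lactacystin arrays lay wholly above the control arrays for 2 at 24 h (Vcam1 92559_at and Ccl2), against 13.8% of all shared probe sets. At 48 h they did so for 5, namely Nfkbia 104149_at, Vcam1 92558_at, Vcam1 92559_at, Icam1 and Ccl2, against 14.7% of all. Over all 10 arrays together, 2 (Vcam1 92559_at and Ccl2) showed complete separation, against 3.78% of all. Complete separation in the other direction was seen for 0 of the 12 in each case, against 18.5%, 8.59% and 2.32% of all. Probe sets of 1 gene share their transcripts, so these 12 are not 12 independent readings.

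The genes around the members were counted from lists of textbook pathway genes, with 1 probe set per gene. Of 23 receptors, adaptors and kinases that lead to NF-kappaB, 13 had a probe set and 11 were tested: 3 rose and 0 fell at 24 h, and 2 rose and 0 fell at 48 h. The background was 8.20% called higher and 6.66% lower at 24 h, and 6.77% and 3.57% at 48 h. The median log2 change of the 11 was 0.19 at 24 h and 0.38 at 48 h, beside -0.03 and 0.04 over all tested probe sets.

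Tnfrsf1a, the main receptor of tumour necrosis factor, averaged 307 with lactacystin against 119 in control at 24 h, and 328 against 132 at 48 h. Its log2 change was 1.19 ± 0.20 at both times (adjusted p = 0.00222 and 0.00339), and the 48 h call was lost without the design covariate (adjusted p = 0.0617). Irak1, a kinase below interleukin-1 and Toll-like receptors, changed by 0.54 ± 0.15 at 24 h (adjusted p = 0.0371) and by 0.70 ± 0.15 at 48 h (adjusted p = 0.0157). Its 24 h call was lost in 10 of 25 alternatives, among them the omission of any 1 of the 24 h arrays but control 24 h replicate 1, with a log2 change of 0.31 and an adjusted p of 0.433 without control 24 h replicate 2. Its 48 h call was lost in 4 of 25 alternatives, among them the omission of control 48 h replicate 1 (adjusted p = 0.0955) or 2 (0.125). Ikbkg, the regulatory subunit of the IkappaB kinase, changed by 0.58 ± 0.16 at 24 h (adjusted p = 0.0344), a call that was lost in 10 of 25 alternatives, among them the omission of any 1 of the 5 arrays at 24 h (up to 0.333 without control 24 h replicate 2), and by 0.23 ± 0.16 at 48 h (adjusted p = 0.442).

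Of 10 other Rel, atypical inhibitor and feedback genes, 7 had a probe set and 4 were tested: 1 rose at 24 h and 0 at 48 h, and 0 fell. The background was again 8.20% called higher and 6.66% lower at 24 h, and 6.77% and 3.57% at 48 h. The gene that rose was Tank, an adaptor that binds TRAF proteins, at 0.57 ± 0.14 at 24 h (adjusted p = 0.0171), a call lost in 5 of 25 alternatives. These were the fits without lactacystin 24 h replicate 2 (adjusted p = 0.0592), without control 24 h replicate 2 (0.196), without the design covariate (0.0650), with the replicate number as a block (0.0552) and on the U74Av2 arrays alone (0.0710). At 48 h Tank stood at 0.43 ± 0.14 (adjusted p = 0.0679).

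Of 33 other textbook NF-kappaB targets, 26 had a probe set and 9 were tested: 3 rose and 0 fell at 24 h, and 1 rose and 0 fell at 48 h. Over all tested probe sets, 8.20% were called higher and 6.66% lower at 24 h, and 6.77% and 3.57% at 48 h. Ier3, an immediate early gene, averaged 740 with lactacystin against 110 in control at 24 h, and 187 against 129 at 48 h. Its log2 change was 2.51 ± 0.26 at 24 h (adjusted p = 0.000116) and 0.44 ± 0.26 at 48 h (adjusted p = 0.341). Csf1, the growth factor of macrophages and microglia, averaged 686 with lactacystin against 248 in control at 24 h, and 626 against 291 at 48 h. It changed by 1.41 ± 0.14 at 24 h (adjusted p = 0.000103) and by 1.12 ± 0.14 at 48 h (adjusted p = 0.000737), and the 48 h call was lost without the covariate (0.102). Gadd45b, a stress-responsive gene, changed by 1.16 ± 0.30 at 24 h (adjusted p = 0.0240), a call lost in 6 of 24 alternatives, among them the omission of lactacystin 24 h replicate 1 (0.0914) or 2 (0.0514) or control 24 h replicate 2 (0.336, with a log2 change of 0.77). The 17 untested targets with a probe set lay under the filter, so nothing is said of their change.

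The receptors of the Vcam1, Icam1 and Ccl2 products were mostly under the filter as well: of 6 listed genes, each with a probe set, 1 was tested. This was Itgb1, the beta-1 chain of the integrin that binds Vcam1. It averaged 4524 with lactacystin against 2515 in control at 24 h, and 3800 against 2756 at 48 h. The log2 change was 0.84 ± 0.10 at 24 h (adjusted p = 0.000341) and 0.46 ± 0.10 at 48 h (adjusted p = 0.0175), and the 48 h call was lost in 7 of 25 alternatives. Under median scaling the 48 h change was 0.29 log2 (adjusted p = 0.122). The call was also lost without control 48 h replicate 1 (0.125) or 2 (0.105), without the design covariate (0.0875), on the U74Av2 arrays alone (0.0921), with the replicate number as a block (0.0562) and with eBayes without trend (0.0531).

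Vcam1 and Ccl2 are known from endothelial cells, glia and stromal cells, so markers of other cell types are given beside them. In bulk RNA of a culture, fewer cells of a type and less RNA per cell cannot be told apart. All 8 neuron markers with a probe set were tested, and their summed signal was 11155 to 15766 with lactacystin against 16516 to 22808 in control at 24 h, and 12535 to 21527 against 20164 to 24610 at 48 h. Within each array design every lactacystin array lay below control at both times. On U74A the sum was 15766 against 22808 at 24 h and 21527 against 24610 at 48 h, and on U74Av2 it was 11296 and 11155 against 16516 at 24 h and 12812 and 12535 against 20164 at 48 h. Bright genes weigh most in this sum, and Stmn2 was the brightest. It averaged 6658 with lactacystin against 11429 in control at 24 h, and 9127 against 13933 at 48 h. The median log2 change of the 8 was -0.28 at 24 h and -0.33 at 48 h. Nefm had estimates above 0 at both times (0.41 and 0.43) and Eno2 at 24 h (0.19), and the others lay below 0. Beside a background of 8.20% called higher and 6.66% lower at 24 h, and 6.77% and 3.57% at 48 h, neuron markers rose in 0 and fell in 2 of 8 at each time. Those that fell were Syt1 and Stmn2 at 24 h and Snap25 and Stmn2 at 48 h. The calls of Syt1 and Snap25 were lost in 8 and 14 of 25 alternatives, with an adjusted p of 0.473 for Syt1 without control 24 h replicate 2 (a log2 change of -0.85, against -1.48) and of 0.371 for Snap25 without control 48 h replicate 2. Stmn2, a neuronal growth-cone protein, fell by 0.74 ± 0.11 log2 at 24 h (adjusted p = 0.00107) and by 0.57 ± 0.11 at 48 h (adjusted p = 0.00681), the 48 h call being lost without control 48 h replicate 2 (0.154) and both calls without the design covariate (0.0571 and 0.171).

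Endothelial markers, 8 with a probe set and 2 tested, had 0 calls at either time. They summed to 256 to 277 with lactacystin against 223 to 237 in control at 24 h, and to 212 to 258 against 173 to 177 at 48 h, so the lactacystin arrays lay wholly above control at each time. Of the 2 tested, Kdr ran from 38.9 to 131 and Pecam1 from 23.0 to 115 over the arrays. Flt1 reached at most 55.4 and Vwf 47.6, while Cdh5, Tek, Tie1 and Cldn5 were under 32 on all arrays.

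Fibroblast, mural and meningeal markers, 12 with a probe set and 10 tested, summed to 4890 to 7642 with lactacystin against 4245 to 4917 in control at 24 h, and to 6857 to 8939 against 4181 to 4395 at 48 h. Igfbp2 was the brightest, at 3235 against 2153 at 24 h and 3502 against 1880 at 48 h. The median log2 change of the 10 was -0.31 at 24 h and 0.37 at 48 h. At 24 h Col1a1, Col3a1, Dcn, Lum, Rgs5 and Vim had estimates below 0, and Acta2, Tagln, Igfbp2 and Ptgds above 0. At 48 h those of Dcn and Vim were below 0. Of the 10, 1 rose and 0 fell at 24 h, and 3 rose and 0 fell at 48 h, and Mgp was under 32 on all arrays. The background was 8.20% called higher and 6.66% lower at 24 h, and 6.77% and 3.57% at 48 h. Tagln was the gene that rose at 24 h, and its call was lost in 3 of 25 alternatives: without control 24 h replicate 1 (adjusted p = 0.107), without the design covariate (0.198) and on the U74Av2 arrays alone (0.173, with a log2 change of 0.82 against 1.24). Igfbp2, beside Acta2 and Tagln, rose at 48 h, and its call was lost without control 48 h replicate 1 (0.104) or 2 (0.111) or the design covariate (0.0674). The smooth muscle actin gene Acta2 rose by 2.10 ± 0.33 at 48 h (adjusted p = 0.00247) and the smooth muscle gene Tagln by 2.12 ± 0.27 (adjusted p = 0.00068), both calls being lost without the design covariate (0.0578 and 0.0503).

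Astrocyte and radial glia markers, 8 with a probe set and 7 tested, summed to 13402 to 21326 with lactacystin against 16692 to 24935 in control at 24 h, and to 24167 to 30459 against 19033 to 26734 at 48 h. Within each array design the lactacystin sums lay below control at 24 h and above it at 48 h. Of the 7, 1 rose (Gja1) and 3 fell (Gfap, Aqp4 and Apoe) at 24 h, and 3 rose (Gfap, Gja1 and Ntsr2) and 0 fell at 48 h. Over all tested probe sets the shares were 8.20% higher and 6.66% lower at 24 h, and 6.77% and 3.57% at 48 h. Ntsr2 is named after its value was seen. The 24 h falls of Gfap and Apoe were lost in 5 and 8 of 25 alternatives, among them the omission of control 24 h replicate 2 (adjusted p = 0.178 and 0.216). Both rises of Gja1 were lost without the design covariate (0.269 at 24 h and 0.458 at 48 h), and the 48 h rise also without control 48 h replicate 2 (0.109). Gfap, the intermediate filament of astrocytes, rose by 1.40 ± 0.15 at 48 h (adjusted p = 0.000328).

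Microglia and macrophage markers, 11 with a probe set and 8 tested, summed to 908 to 1714 with lactacystin against 840 to 1143 in control at 24 h, and to 1198 to 2073 against 690 to 1447 at 48 h. Within each array design every lactacystin array lay above control at both times. On U74A the sum was 1714 against 1143 at 24 h and 2073 against 1447 at 48 h. On U74Av2 it was 908 and 926 against 840 at 24 h and 1198 and 1805 against 690 at 48 h. Bright genes weigh most in such a sum, and Cd68 averaged 446 with lactacystin against 151 in control at 24 h. At 24 h the estimates of C1qa, C1qc, Csf1r and Cx3cr1 were below 0, and those of Cd68, Tyrobp, Ctss and Lyz2 above 0. The median log2 change of the 8 was -0.04 at 24 h and 0.48 at 48 h. Of the 8, 1 rose and 0 fell at 24 h, and 3 rose and 0 fell at 48 h. The background was 8.20% called higher and 6.66% lower at 24 h, and 6.77% and 3.57% at 48 h. The microglial integrin gene Itgam, which is also on the receptor list, was under 32 on all arrays. Cd68 was the gene that rose at 24 h, joined at 48 h by Tyrobp and Ctss, whose calls were lost in 6 of 22 and 7 of 24 alternatives, among them the omission of control 48 h replicate 2 (adjusted p = 0.318 and 0.115). Cd68, a lysosomal protein of phagocytes, rose by 1.41 ± 0.27 at 24 h (adjusted p = 0.00521) and by 1.47 ± 0.27 at 48 h (adjusted p = 0.0061), calls lost in 3 and 2 of 25 alternatives, among them the omission of control 24 h replicate 2 (0.0826) for the 24 h call and of control 48 h replicate 2 (0.115) for the 48 h call. Of the 5 oligodendrocyte markers with a probe set, 1 was tested, with 0 calls, and Mag was under 32 on all arrays. The part of these cell types in the changes of Vcam1 and Ccl2 was not tested.

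**Figure D4:**
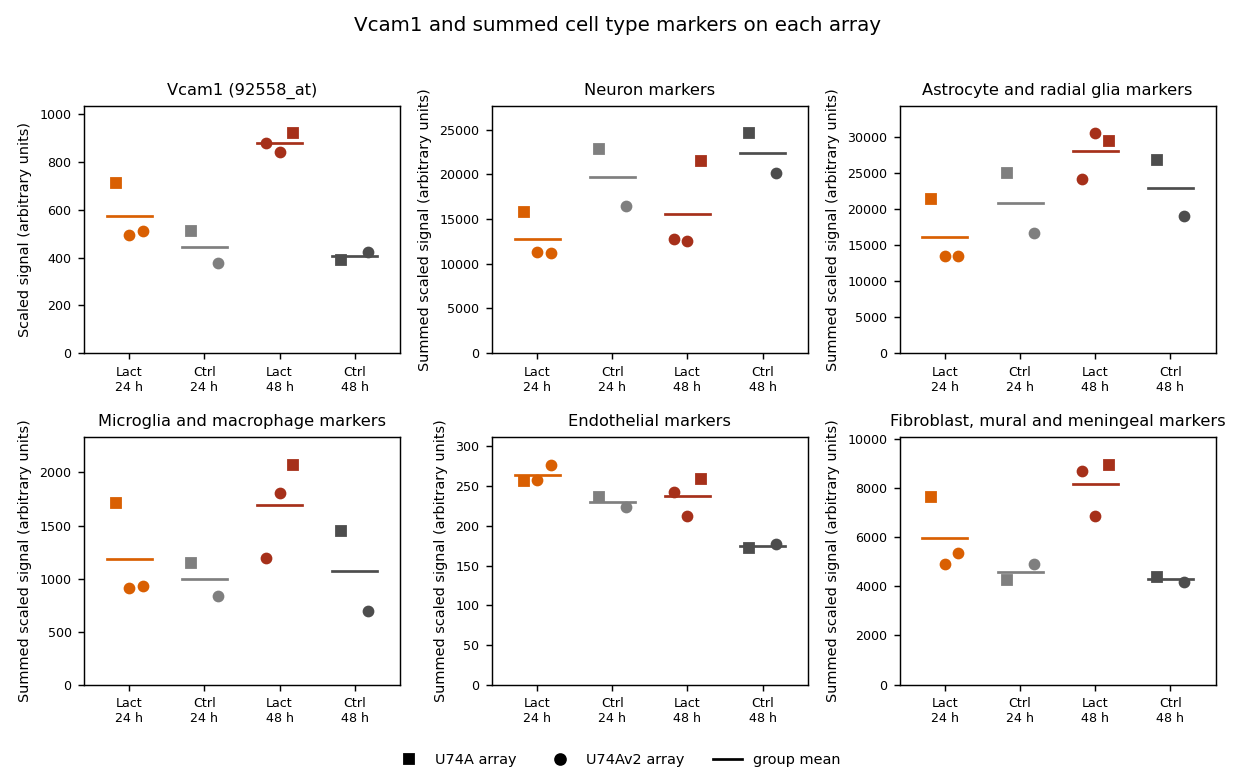
Scaled signal of Vcam1 92558_at and summed scaled signal of 5 marker lists (arbitrary units, y axes from 0) on each of the 10 arrays, with lactacystin left of control at each time; squares are U74A arrays, circles U74Av2 arrays and bars group means. At 48 h, Vcam1, the endothelial sum (212 to 258 against 173 to 177) and the fibroblast, mural and meningeal sum (6857 to 8939 against 4181 to 4395) lay wholly above control with lactacystin. Within each array design, the astrocyte and microglia sums also lay above control at 48 h. The neuron sums (12535 to 21527 against 20164 to 24610) lay below control within each design.

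By the rule for likeness, the genes whose pattern over the 10 arrays was closest to that of Vcam1 92558_at were Nnt, Hadhb and Csrp1. Likeness was the root mean square difference of centred log2 values after removal of the design offset, which was 0.116, 0.119 and 0.123 log2 for these genes, beside a median of 0.49 over all named genes. Nnt is a mitochondrial transhydrogenase, Hadhb a subunit of the mitochondrial trifunctional protein and Csrp1 a LIM domain protein. Their log2 changes at 48 h were 1.24 ± 0.14, 1.00 ± 0.15 and 0.81 ± 0.18 (adjusted p = 0.000435, 0.00238 and 0.0153). The genes were picked for this likeness, so a rise at 48 h follows from the choice, and these p-values add no support. These arrays share groups, so likeness over them is a description of these data.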

How the data were processed

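RNA of 10 samples was measured, on 1 Affymetrix array each. The deposited values are intensities, 1 linear signal per probe set, and the submitters' processing notes name MAS5 without a version. U74A (10043 probe sets) and U74Av2 (12488) are separate tables. After 66 control probe sets were left out, 9977 were shared. Of these, 8724 carried 1 symbol in the platform annotation, 346 several and 907 none.

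Signals were multiplied by 1 factor per array, so that the 2% trimmed mean of the shared probe sets was 500, then 32 was added and log2 taken. Median deposited signals ran from 159 to 235.1, and 19.9% to 27.8% of scaled values lay under 32. The 30% of probe sets with the lowest mean (2993) were left out. The number of arrays limits the precision.

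Tests used limma 3.58.1 in R 4.3.3 (lmFit, eBayes with trend, two-sided), with the 4 groups together and array design as a covariate (5 residual degrees of freedom, and 6 over both times). A batch that goes with design and design itself cannot be told apart. The fit was also run on data simulated from its own model with independent errors. Such data cannot show how calls depend on the covariate or on single arrays, and nothing is concluded from them. Alternatives were other pseudocounts, scalings, filters, variance models and sample sets. Nothing was fitted for the U74Av2-only probe sets, whose signals were very low.

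The probe set with the highest mean stood for its gene. Named were all members, up to 4 called genes per list by size of change, and the 3 genes most like each called, tested member. The members and lists were chosen with earlier results of these data known. Of 13 same-numbered pairs of arrays, the 9 of one array design had deviations from their group means that correlated over 0.1 and the 4 across designs lay below 0 (range -0.62 to 0.68). The correlations thus followed array design, so they cannot tell whether equal numbers mark shared cultures. Numbers were not taken to pair samples.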

Additional observations from a re-analysis of the deposited data

Results flagged for a closer look

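The lactacystin effect differed between the times, by limma's test of the difference itself, for 3 of the genes named beside the members. For the NF-kappaB target Ier3 the log2 change at 48 h minus that at 24 h was -2.07 ± 0.37 (adjusted p = 0.0225), a call that was lost in 10 of 24 alternatives, 6 of them the omission of 1 array. Those arrays were lactacystin 24 h replicates 2 and 3 and each of the 4 control arrays, and the adjusted p was highest without control 24 h replicate 2 (0.151). The astrocyte water channel Aqp4 had a difference of 2.38 ± 0.25 (adjusted p = 0.00186), lost in 2 of 24 alternatives. For Gfap it was 2.04 ± 0.21 (adjusted p = 0.00186), held in all 24. No member probe set had a difference past the test.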

How the results depend on the processing

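The 48 h call of Vcam1 92558_at held in all 25 alternatives and the call of Ccl2 over both times in all 22. Vcam1 92559_at lost its 48 h call in 7 of 23 and its call over both times in 5 of 22, and Ccl2 lost its call in 3 of 23 at 24 h and 5 of 23 at 48 h. Over 970 alternatives of member results that did not pass, 969 still did not pass, and in 63 the estimate had the other sign. Over all probe sets, without the array design covariate there were 248 calls at 24 h, 110 at 48 h, 493 over both times and 2 for the difference between the times, against 1038, 722, 1190 and 86. On the U74Av2 arrays alone, with fewer samples and 2 residual degrees of freedom, there were 564, 386, 519 and 12. Arrays of 48 h alone gave 439 at 48 h. For the difference, median scaling gave 155, no filter 48 and eBayes without trend 36.

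Median scaling moved the median log2 change of all probe sets at 48 h to -0.11, against 0.04, and turned the split of calls to 287 higher and 637 lower, against 473 and 249. The split was 457 and 708 over both times, against 665 and 525, and 19 and 136 for the difference, against 29 and 57. Relative to that median, Vcam1 92558_at stood at 1.05 at 48 h under either scaling.

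Leaving out 1 array gave 310 to 1106 calls at 24 h, 210 to 823 at 48 h, 760 to 1150 over both times and 5 to 186 for the difference. The lowest counts came without control 24 h replicate 2 (24 h and both times), control 48 h replicate 2 (48 h) and control 48 h replicate 1 (difference). With the replicate number as a block the counts were 780, 536, 747 and 60, and the block ended the 48 h call of Vcam1 92559_at (adjusted p = 0.0611) and its call over both times (0.0602). The causes were not tested. At signals near or under 32, as for Ccl2, Icam1 and Vcam1 92559_at, the size of a change depends on the constant added: for Ccl2 it ran from 0.48 to 2.52 log2 at 24 h and from 0.38 to 2.81 at 48 h over the alternatives.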
